A study of Homo sapiens with 15 samples.

Results

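Clone 3 is 1 of 4 lines grown from single cells of BT474, a human breast cancer line in which HER2 is amplified, after selection for resistance to trastuzumab emtansine (T-DM1). Its 3 arrays, titled as resistant clone C#3, were compared with the 3 arrays titled as the parental cell line, so that 6 of the 15 arrays of the series carry the comparison. Per the labels, the clone came from prolonged exposure to the drug, was isolated by single-cell cloning and was then kept in 5 nM T-DM1 for 3 months. The parental cells are labelled as drug-sensitive BT474. Both lines grew in DMEM with fetal bovine serum and antibiotics, and total RNA was hybridised to Affymetrix arrays. The labels call the 3 arrays of each line biological replicates. Whether T-DM1 was in the medium when clone 3 was harvested is not stated. The resistant line is 1 clone, and no clone grown from BT474 without the drug is among the samples, so selection by T-DM1, growth from a single cell and culture with the drug cannot be told apart. The other 3 clones, 1, 2 and 6, were made in the same way with 3 arrays each and serve to show where clone 3 differs from them.

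T-DM1 joins trastuzumab, an antibody against the receptor tyrosine kinase HER2, to DM1, a drug that blocks the assembly of microtubules. The conjugate binds HER2 at the cell surface, is taken up by endocytosis and is broken down in lysosomes, which frees the drug. DM1 then stops cells in mitosis, when the spindle has to be built from microtubules, and arrested cells may die by apoptosis. BT474 is a luminal line, which means that it expresses the oestrogen receptor and the keratins of the secretory layer of the breast epithelium.

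The deposited values were log2 expression levels for 53617 probe sets, of which 16098 had 1 gene symbol in the annotation used here and 37519 had none here. ERBB2 (the gene of HER2), the efflux pumps ABCB1 and ABCC1 and the lysosomal transporter SLC46A3 were among the genes left without a symbol, so they were not analysed here. After removal of dim probe sets and choice of 1 probe set per symbol, 12147 genes were tested, 10391 of them protein coding. The upper quartile of the log2 levels lay between 5.86 and 5.89 in the clone 3 arrays and between 5.94 and 5.96 in the parental arrays, and no 2 arrays were identical. Correlations between arrays over all probe sets were 0.988 to 0.990 within clone 3, 0.992 to 0.993 within the parental line and 0.979 to 0.986 between them, taken over probe sets, which do not count as replicates. All 14 luminal epithelial markers with a symbol here exceeded the 40th percentile of their array, the limit used for dim probe sets, in all arrays of clone 3 and of the parental line. Of the 5 leukocyte, 3 fibroblast and 6 endothelial markers with a symbol, 3, 1 and 2 did so in every array of both lines, and none of the tested markers of these types, or of the basal epithelium (3 of 5 above the limit), was called. RNA came from whole cultures, so fewer cells of a type and less RNA per cell cannot be told apart.

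Clone 3 differed from the parental line in 2090 of the 12147 genes (17.2%) at an adjusted p below 0.05, the call used throughout. Lower genes outnumbered higher ones, with 1334 genes lower in clone 3 (11.0%) and 756 higher (6.22%). Changes of at least 2-fold were seen in 123 lower genes (1.01%) and 41 higher ones (0.338%). The 3 arrays of clone 3 lay apart from the 3 parental arrays in 2067 of the 2090 called genes, and over all genes tested they did so upwards in 2026 (16.7%) and downwards in 2705 (22.3%). The smallest called change was 0.27 on the log2 scale, which is a 1.20-fold change, and the median change over all tested genes was -0.0018. The share of calls that were lower, 63.8%, depended on the scaling. It was 50.3% (1032 genes higher and 1046 lower) when the arrays were made to share 1 distribution again, and 67.9% (643 higher and 1362 lower) when they were centred on their medians. The count of higher genes was 495 without clone 3 replicate 1, 429 without parental replicate 2 and 420 without parental replicate 3, and that of lower genes was 855 without parental replicate 3. All adjusted p-values for single genes come from limma with Benjamini-Hochberg adjustment over the 12147 genes. A change is the mean log2 level of clone 3 minus that of the parental line, and ± after a change is limma's standard error with 3 arrays in each line.

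The largest rises were in CLCA2, a secreted regulator of chloride conductance that p53 can induce, and in TARP, a transcript from the T-cell receptor gamma locus known from prostate and breast cancer cells. CLCA2 had log2 levels of 9.99, 10.55 and 10.35 in clone 3, against 7.37, 7.51 and 7.65 in the parental line. The lowest clone 3 array stood well above the highest parental one, a change of 2.79 ± 0.20 or 6.90-fold (adjusted p = 2.6e-07). TARP had log2 levels of 8.27, 8.84 and 8.54 in clone 3 and of 5.74, 5.85 and 6.06 in the parental line, and rose by 2.67 ± 0.36 (6.37-fold, adjusted p = 0.000136). Its probes may also read other transcripts of the same locus. KLK12, a secreted serine protease of the kallikrein family, had log2 levels of 7.59, 5.72 and 6.53 in clone 3 and of 4.74, 4.30 and 4.03 in the parental line. Its clone 3 arrays were spread over nearly 2 log2 units yet did not overlap the parental ones (adjusted p = 0.000796). CXCR4, the receptor of the chemokine CXCL12, was much more even, with log2 levels of 9.37, 9.44 and 9.41 in clone 3 and of 7.42, 7.60 and 7.46 in the parental line. It rose by 1.92 ± 0.15, or 3.78-fold (adjusted p = 5.58e-07).

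Next in size among the higher genes were SYNPO2L, an actin-binding protein of muscle (1.70 ± 0.15), MX2, an interferon-induced antiviral GTPase (1.55 ± 0.20), and BCAS1, a gene first found in amplified DNA of breast cancers (1.51 ± 0.14). VPS35L, a subunit of the retriever complex that returns membrane proteins from endosomes, rose by 1.38 ± 0.11, and the scaffold protein IQGAP2 likewise by 1.38 ± 0.11. SCIN, which severs actin filaments, rose by 1.35 ± 0.16. MVP, the major protein of vault particles, had log2 levels of 7.86, 8.12 and 7.79 in clone 3 and of 6.78, 6.65 and 6.70 in the parental line. Its change was 1.21 ± 0.14 or 2.32-fold (adjusted p = 3.4e-05). MVP was the sole tested member of the list of efflux pumps and vault protein. The rest of the 15 genes with the largest rises were NCKAP5, GRAMD2A, MCM6 and LINC01963, with changes from 1.27 to 1.28.

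**Figure D1:**
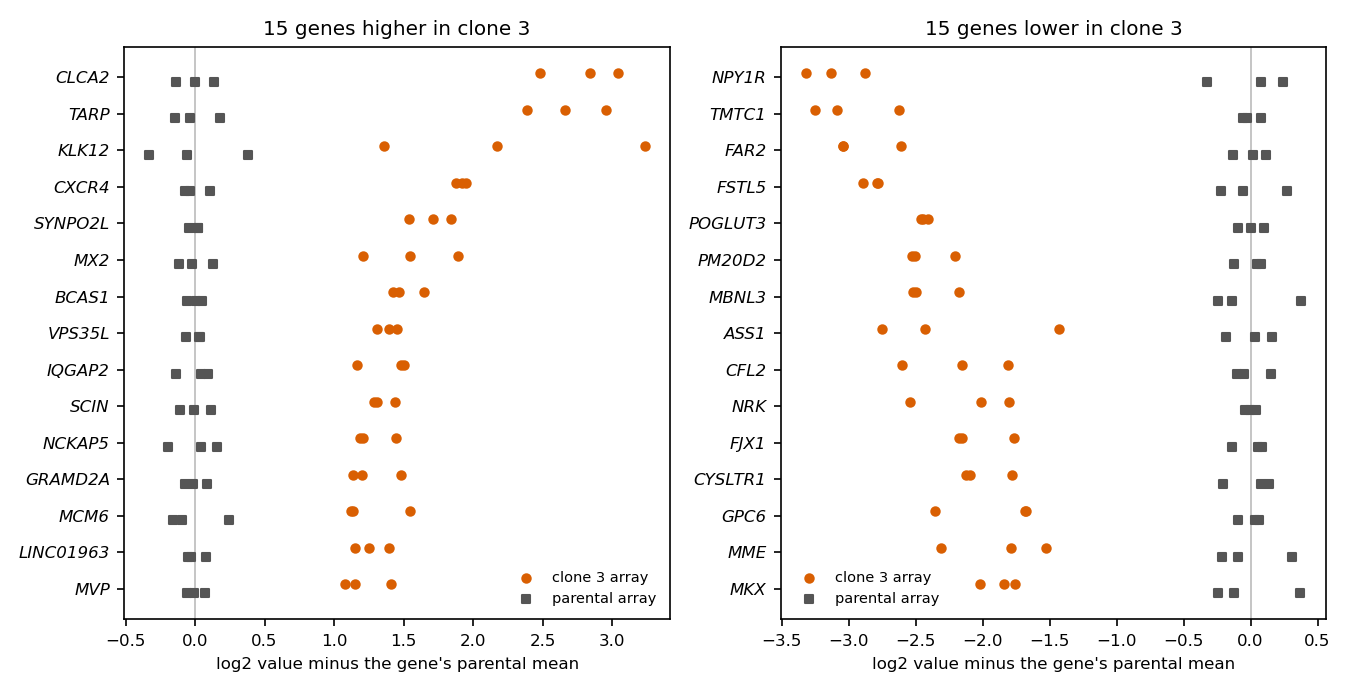
Log2 level of each array minus the mean of the gene's 3 parental arrays (horizontal axis) for the 15 genes with the largest rises and the 15 with the largest falls in clone 3; circles are clone 3 arrays and squares parental arrays. No clone 3 array overlaps a parental one in these genes; KLK12 and ASS1 show the widest spread within clone 3.

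The largest falls were in NPY1R, a receptor of neuropeptide Y whose gene oestrogen induces in breast cancer cells, and in TMTC1, an enzyme that adds mannose to proteins in the endoplasmic reticulum. NPY1R had log2 levels of 6.37, 6.12 and 5.93 in clone 3, against 8.93, 9.33 and 9.49 in the parental line, and fell by 3.11 ± 0.18 on the log2 scale (8.63-fold, adjusted p = 1.91e-08). TMTC1 had log2 levels of 4.28, 4.12 and 4.75 in clone 3 and of 7.45, 7.31 and 7.34 in the parental line. Both genes were apart by more than 2 log2 units between the nearest arrays. FAR2, which reduces fatty acids to alcohols for waxes and ether lipids, had log2 levels of 4.87, 4.44 and 4.44 in clone 3 and of 7.60, 7.50 and 7.35 in the parental line (adjusted p = 5.02e-10). FSTL5, a follistatin-like secreted protein, had 3.18, 3.28 and 3.28 in clone 3, below the 40th percentile in all 3 arrays, and 5.85, 6.01 and 6.34 in the parental line. Its fall of 2.82 on the log2 scale therefore rests on a level near the background in clone 3.

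POGLUT3, which attaches glucose to the EGF repeats of Notch and other proteins, fell by 2.44 ± 0.13. ASS1, the enzyme that makes argininosuccinate in arginine synthesis, had log2 levels of 8.84, 7.52 and 7.84 in clone 3 and of 10.43, 10.30 and 10.08 in the parental line. The clone 3 arrays spanned more than 1 log2 unit and all lay below the parental ones, a change of -2.20 ± 0.31 (adjusted p = 0.000188). CYSLTR1, a receptor of cysteinyl leukotrienes, fell by 2.00 ± 0.24 to levels below the 40th percentile in all clone 3 arrays. Further falls were seen in PM20D2 (-2.42), the splicing regulator MBNL3 (-2.40), the actin-severing protein CFL2 (-2.19), the kinase NRK (-2.12), FJX1 (-2.03), the glypican GPC6 (-1.91), the cell-surface peptidase MME (-1.88) and the homeobox factor MKX (-1.87). Each of these 15 higher and 15 lower genes kept its call without any 1 of the 6 arrays.

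Genes of mitosis, the phase that DM1 blocks, were called in 1 direction. Of 33 tested members of a list of mitosis and spindle checkpoint genes, 13 fell and 0 rose in clone 3, and 1 had a positive change, which was not called. The median change was -0.30, beside -0.0018 over all genes. Over all genes 11.0% fell and 6.22% rose, shares that apply to this and the later lists. Between 9 and 12 falls were counted when 1 of the 6 arrays was left out. CCNB2, the cyclin B2 that activates CDK1, had log2 levels of 7.62, 7.43 and 7.51 in clone 3 and of 8.48, 8.50 and 8.59 in the parental line (adjusted p = 2.04e-05). All 3 clone 3 arrays were lower, a 2.01-fold fall with a standard error of 0.11 on the log2 scale. NUSAP1, which binds and bundles spindle microtubules, fell by 0.88 ± 0.13, and KIF23, a kinesin needed for cell division at the midbody, fell by 0.88 ± 0.14. KIF18A, a kinesin that shortens spindle microtubules, fell by 0.86 ± 0.17. PLK1, a kinase of mitotic entry and spindle assembly, had log2 levels of 9.32, 9.42 and 9.10 in clone 3 and of 10.02, 9.95 and 10.23 in the parental line (adjusted p = 0.000906). CCNB1, the cyclin B1, fell by 0.78 ± 0.10, BUB1B, a kinase of the spindle checkpoint, by 0.67, and CDC20, the activator of the anaphase-promoting complex, by 0.62. AURKA, a kinase of the spindle poles, fell by 0.38. Falls of 0.38 to 0.43 in ESPL1, PRC1, CDCA3 and AURKB were each lost without at least 3 of the 6 arrays.

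Of the 13 mitotic genes that fell, 5 lie on chromosome 15 (CCNB2, NUSAP1, KIF23, BUB1B and PRC1), all of the list's tested members there. Genes of that chromosome were often lower in clone 3, as described further on. In clone 6 the 5 genes had changes of -0.95, -0.36, -0.77, -0.43 and -0.61, in the order named, beside a chromosome median of -0.08. Their changes in clones 1 and 2 lay between -0.34 and 0.15. Among the 28 members elsewhere in the genome, 8 fell and 0 rose, with a median change of -0.28. Of 21 tested genes of DNA replication 1 rose and 1 fell, and the median change was 0.12. With the 6 arrays fitted alone 2 rose. The difference between these lists was not tested. MCM6, a subunit of the replicative helicase, had log2 levels of 9.90, 9.92 and 10.33 in clone 3 and of 9.03, 8.63 and 8.69 in the parental line, a change of 1.27 ± 0.23 (adjusted p = 0.00122). MCM4, another subunit, had a change of -0.56 ± 0.18 (adjusted p = 0.0426), and this call was lost when any 1 of the 6 arrays was left out (adjusted p from 0.0505 to 0.118).

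Promoters of genes used in G2 and mitosis often carry a cell cycle homology region, TTTGAA, near the start and CCAAT boxes upstream of it, through which their transcription is restricted to these phases. The promoters of 3 of the genes with the largest falls in the list are shown from 250 bases before to 50 after the annotated start, 1 of them off chromosome 15, from RefSeq (GRCh38.p14), with TTTGAA and CCAAT, on either strand, in capitals.
CCNB2 promoter, chr15:59104896-59105195, + strand: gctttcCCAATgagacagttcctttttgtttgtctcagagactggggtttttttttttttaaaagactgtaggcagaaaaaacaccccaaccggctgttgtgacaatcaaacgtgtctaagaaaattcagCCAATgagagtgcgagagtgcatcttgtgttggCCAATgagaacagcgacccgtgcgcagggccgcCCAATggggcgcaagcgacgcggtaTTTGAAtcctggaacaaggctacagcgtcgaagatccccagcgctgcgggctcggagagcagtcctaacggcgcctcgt
KIF23 promoter, chr15:69414099-69414398, + strand: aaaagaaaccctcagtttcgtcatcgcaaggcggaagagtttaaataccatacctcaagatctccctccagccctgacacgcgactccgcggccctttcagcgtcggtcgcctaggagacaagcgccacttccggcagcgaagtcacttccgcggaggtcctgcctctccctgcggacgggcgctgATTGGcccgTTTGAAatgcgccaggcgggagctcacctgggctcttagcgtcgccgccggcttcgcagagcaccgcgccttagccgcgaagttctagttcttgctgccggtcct
KIF18A promoter, chr11:28108107-28108406, - strand: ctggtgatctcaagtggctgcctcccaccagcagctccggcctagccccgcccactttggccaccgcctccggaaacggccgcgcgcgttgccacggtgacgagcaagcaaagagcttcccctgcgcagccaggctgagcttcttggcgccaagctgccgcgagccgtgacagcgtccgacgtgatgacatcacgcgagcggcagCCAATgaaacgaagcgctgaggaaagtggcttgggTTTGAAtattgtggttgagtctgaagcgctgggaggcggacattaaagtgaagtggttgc
Each holds 1 TTTGAA and at least 1 CCAAT. Both strands were searched, and the motifs share no bases in these windows. TTTGAA was found in 10 of the 12 fallen mitotic genes with a promoter in the table (83.3%) and in 21 of the 28 tested members with one, beside 15.2% of all 35116 promoters. CCAAT was found in 11 of the 12 and in 24 of the 28, beside 34.6% of all promoters. Of the 16 members that were not called, 11 held TTTGAA and 13 held CCAAT. Counts of list members are of genes with the motif in any of their promoters, whereas the shares over all count single promoters. The difference between called and other members was not tested, and the presence of a motif shows no binding.

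Calls among genes of cell death were downwards, although most members were not called. Of 16 tested genes of the BCL2 family and death receptors 7 fell and 0 rose, with a median change of -0.35. Counts of 4 and 3 falls were left without clone 3 replicate 1 and without parental replicate 3, while 2 genes rose when the arrays were made to share 1 distribution again and 1 with the 6 arrays fitted alone. PMAIP1, which encodes NOXA, a protein that promotes apoptosis by binding MCL1, had log2 levels of 4.99, 4.99 and 5.32 in clone 3, against 6.34, 6.71 and 6.45 in the parental line. It fell by 1.40 ± 0.19 (2.64-fold, adjusted p = 0.000132). BCL2, which blocks apoptosis, had log2 levels of 3.90, 4.35 and 3.78 in clone 3 and of 4.97, 5.32 and 4.96 in the parental line (adjusted p = 0.000115). So members that promote death and members that oppose it both fell. BAX, an effector of apoptosis, changed by -0.70 ± 0.18 (adjusted p = 0.0127) and BCL2L1, which encodes the survival protein BCL-XL, by -0.45 ± 0.12 (adjusted p = 0.0156). Both calls were lost without parental replicate 3 (adjusted p = 0.0726 for BAX and 0.0809 for BCL2L1), that of BAX also without clone 3 replicate 1 and that of BCL2L1 without clone 3 replicate 3. BID, which carries the death receptor signal to mitochondria, fell by 0.40. The calls of XIAP (-0.41) and BMF (-0.36) were lost without 4 and without any of the 6 arrays. MCL1, another survival protein, had log2 levels of 9.34, 9.32 and 9.18 in clone 3 and of 9.07, 9.18 and 9.21 in the parental line, which overlapped (adjusted p = 0.414).

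Of 14 tested p53 target genes 5 fell and 1 rose, with a median change of -0.49. The falls numbered 3 without clone 3 replicate 3, 3 without parental replicate 2 and 2 without parental replicate 3, and the 1 rise, of CCNG1 (0.49), was lost without clone 3 replicate 1 or 2 or parental replicate 1 or 2. The fallen members included PMAIP1 and BAX, which the list shares with the BCL2 family, and SESN1, a stress-induced inhibitor of mTORC1 signalling. SESN1 had log2 levels of 6.56, 6.64 and 6.61 in clone 3 and of 6.98, 7.25 and 7.61 in the parental line, a change of -0.68 ± 0.14 (adjusted p = 0.00287). CDKN1A and MDM2 were not analysed here for want of a symbol.

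Luminal and oestrogen receptor genes were more often lower than higher, and 2 trefoil factor genes rose. Of 23 tested members 9 fell and 2 rose, and the median change was -0.36. PGR, the progesterone receptor and an oestrogen receptor target, had log2 levels of 8.44, 7.40 and 7.28 in clone 3 and of 8.87, 9.31 and 9.23 in the parental line. Replicate 1 of clone 3 stood about 1 log2 unit above the other two but below every parental array, and the change was -1.43 ± 0.28 (adjusted p = 0.0022). GATA3, a transcription factor that keeps luminal identity, had log2 levels of 8.22, 8.44 and 8.42 in clone 3 and of 8.98, 9.17 and 9.22 in the parental line. It fell by 0.76 ± 0.15, while it was lower still in the other clones, 2.03 below clone 3 on average (clone 3 minus the mean of clones 1, 2 and 6, adjusted p = 1.5e-08). The oestrogen receptor gene ESR1 itself had log2 levels of 7.99, 7.99 and 7.78 in clone 3 and of 8.24, 8.47 and 8.35 in the parental line. Its change of -0.43 ± 0.14 was just called (adjusted p = 0.0443), and the call was lost without any 1 of the 6 arrays (adjusted p from 0.0594 to 0.157). NAT1, an arylamine acetyltransferase that marks luminal tumours, fell by 0.81 and the luminal keratin KRT18 by 0.56. RET, a receptor tyrosine kinase that oestrogen induces, had a change of -0.63, a call lost without clone 3 replicate 1 or parental replicate 1, and the call of the factor SPDEF (-0.37) was lost without any 1 of the 6 arrays. TFF3, a secreted trefoil peptide, had log2 levels of 7.60, 7.22 and 7.52 in clone 3 and of 6.30, 6.31 and 6.22 in the parental line, and rose by 1.17 ± 0.17 (adjusted p = 0.000191). TFF1, its relative and another oestrogen target, rose by 0.58.

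Among the 14 luminal markers, 6 fell and 0 rose, 3 without clone 3 replicate 3 or without parental replicate 2. The mean log2 level of the 14 lay between 8.83 and 8.98 in the clone 3 arrays and between 9.17 and 9.25 in the parental arrays. KRT19 had overlapping log2 levels of 10.88, 10.81 and 10.88 in clone 3 and of 10.83, 10.88 and 10.65 in the parental line (adjusted p = 0.673). EPCAM, an epithelial adhesion protein, had log2 levels of 10.54, 10.60 and 10.57 in clone 3 and of 10.33, 10.33 and 10.34 in the parental line, which did not overlap but did not pass the test (adjusted p = 0.0646). KRT8 had a change of -0.36 (adjusted p = 0.122). Of 11 tested genes of the androgen receptor list 4 rose and 1 fell, with a median change of 0.10; the receptor gene had no symbol here. The risen members were TARP, the apolipoprotein APOD (0.97 ± 0.20), HPGD, which inactivates prostaglandins (0.85 ± 0.12), and ZBTB16 (0.33), whose call held without clone 3 replicate 1 and was lost without any other array. FKBP5, a co-chaperone of steroid receptors, had log2 levels of 4.20, 4.96 and 4.68 in clone 3 and of 5.83, 5.66 and 5.59 in the parental line. Its fall of 1.07 ± 0.16 (adjusted p = 0.000274) went against the other called members of that list.

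HER family genes with a symbol here changed little. Of 13 tested receptors, ligands and adaptors 2 fell and 0 rose, with a median change of -0.02. GRB7, an adaptor protein whose gene neighbours that of HER2 and is amplified with it in many tumours, had log2 levels of 9.73, 9.47 and 9.29 in clone 3 and of 10.40, 10.28 and 10.41 in the parental line. All clone 3 arrays were lower, a change of -0.87 ± 0.13 (1.83-fold, adjusted p = 0.000274). NRG3, a ligand of HER4, fell by 0.57 ± 0.11. ERBB3, the HER2 partner without strong kinase activity, had log2 levels of 9.08, 8.97 and 8.98 in clone 3 and of 8.71, 8.74 and 8.73 in the parental line. ERBB4 had log2 levels of 5.54, 5.54 and 5.36 in clone 3 and of 5.11, 5.13 and 5.25 in the parental line. In both genes the arrays did not overlap, yet neither change passed the test (0.28 for ERBB3, adjusted p = 0.126, and 0.32 for ERBB4, adjusted p = 0.14), and both passed when just the 6 arrays were fitted (adjusted p = 0.0462 and 0.0427), which gave 3 rises in the list.

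Downstream of the receptors, 4 of 23 tested feedback genes of the MAPK and PI3K pathways fell and 1 rose, with a median change of -0.29. MYC, a transcription factor that growth signals induce, had log2 levels of 5.84, 5.07 and 5.16 in clone 3 and of 6.80, 7.82 and 6.66 in the parental line. It fell by 1.74 ± 0.30, or 3.33-fold (adjusted p = 0.00106). IRS1, the adaptor of insulin and IGF receptors, fell by 1.10 ± 0.24, and SPRY2, an inhibitor of receptor tyrosine kinase signalling, by 0.81 ± 0.12. EGR1, an immediate early gene, had log2 levels of 6.09, 6.25 and 5.80 in clone 3 and of 6.49, 9.31 and 7.31 in the parental line, so that parental replicate 2 was far above the other arrays. Its change of -1.66 ± 0.49 (adjusted p = 0.0269) was -0.85 without that array (adjusted p = 0.099), and the call was also lost without clone 3 replicate 1 or 3. PIK3IP1, an inhibitor of PI3K, rose by 0.41, a call lost without clone 3 replicate 1 or 2 or parental replicate 2 or 3.

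Along the route of the conjugate through the cell, most endosomal and lysosomal genes tested were not called, and some were lower, beside 11.0% lower over all genes. Of 15 tested genes of endocytosis and endosome sorting 4 fell and 1 rose. EPN1, an adaptor of clathrin-coated pits, had log2 levels of 7.35, 7.51 and 7.33 in clone 3 and of 8.05, 7.96 and 8.28 in the parental line, a change of -0.70 ± 0.12 (adjusted p = 0.00072). SNX9, which bends membranes at coated pits, fell by 0.49 ± 0.08. EHD4, an endosomal ATPase, fell by 0.59 ± 0.10 and SNX1, a sorting nexin, by 0.49 ± 0.12; both genes lie on chromosome 15. The median change of the list was -0.19, and -0.03 over its 13 members on other chromosomes, of which 2 fell and 1 rose. The rise of VPS35, a retromer subunit (0.35), was lost without any 1 of the 6 arrays. Of 20 tested lysosomal proteases and membrane proteins 5 fell and 1 rose, with a median change of 0.01. CTSC, a protease that activates other proteases, had log2 levels of 5.17, 5.04 and 5.08 in clone 3 and of 6.14, 6.24 and 6.39 in the parental line, and fell by 1.16 ± 0.11 (2.24-fold, adjusted p = 5.53e-06). TPP1, a lysosomal peptidase, fell by 0.63 ± 0.09, LAMP2, a protein of the lysosomal membrane, by 0.49 ± 0.09, and the aspartic protease CTSD by 0.49 ± 0.11. The call of CTSZ (-0.37) was lost without clone 3 replicate 1 or 2 or parental replicate 1 or 2. CTSF rose by 0.66 ± 0.15. LAMP1 and CTSB had overlapping arrays and changes of 0.05 and -0.02 (adjusted p = 0.775 and 0.928).

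The target of DM1 was covered by few genes. Of 19 tested tubulins and microtubule-binding proteins 2 fell and 1 rose, with a median change of 0.08. TBCE, a chaperone that folds tubulin, had log2 levels of 7.24, 7.29 and 7.19 in clone 3 and of 7.78, 7.73 and 7.68 in the parental line, a change of -0.49 ± 0.11 (adjusted p = 0.00547). KIF5B, the heavy chain of conventional kinesin, changed by -0.31 ± 0.09 (adjusted p = 0.0224), a call lost without clone 3 replicate 1 or 3 or parental replicate 2 or 3. MAP1B, which stabilises microtubules, changed by 0.46 ± 0.13 (adjusted p = 0.0225), a call lost without any array but parental replicate 3.

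**Figure D2:**
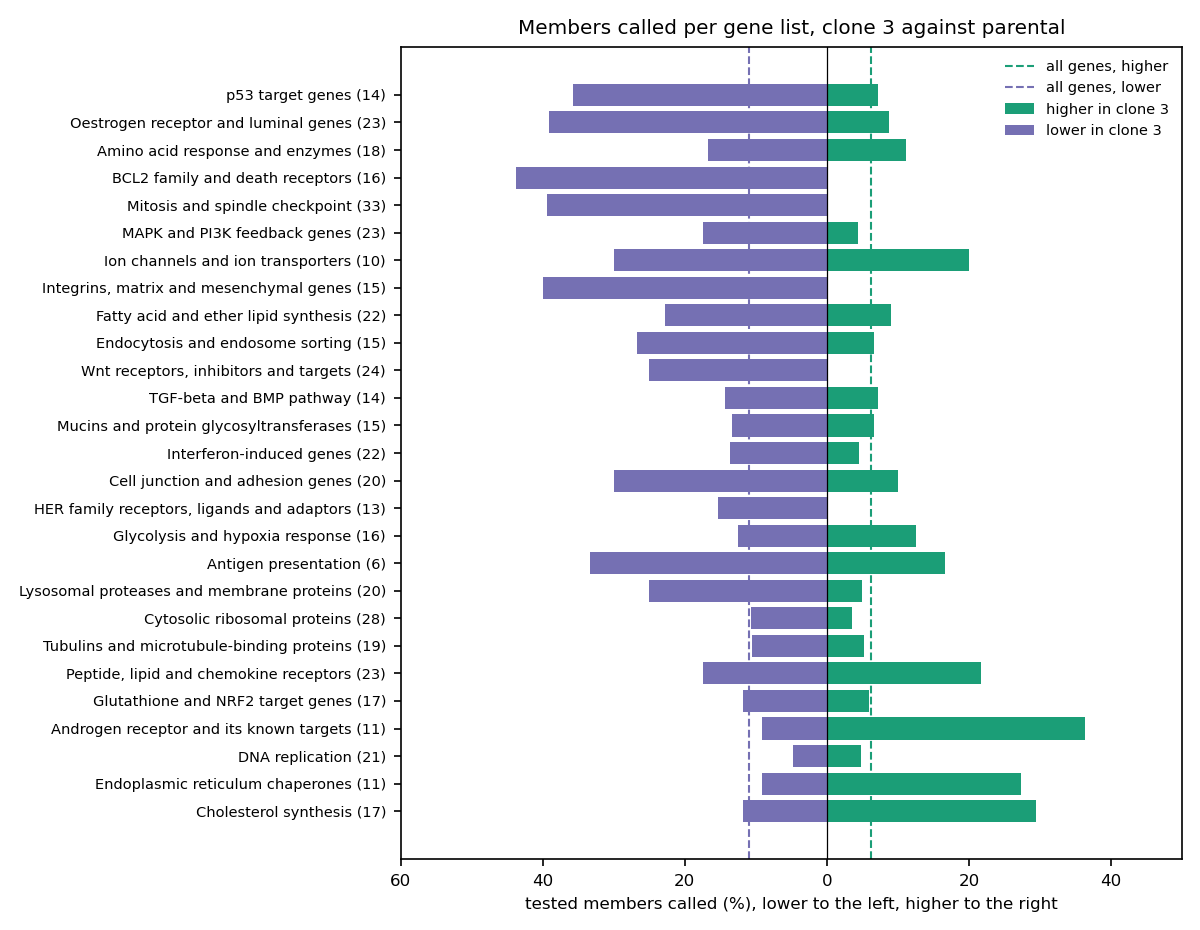
Percent of tested members that were higher (bars to the right) or lower (bars to the left) in clone 3 than in the parental line for 27 gene lists with at least 5 tested members, whose number stands in parentheses; dashed lines are the shares over all 12147 genes, 6.22% higher and 11.0% lower. Lists are ordered by their median change, lowest at the top.

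Lipid and amino acid metabolism moved gene by gene. In cholesterol synthesis 5 of 17 tested genes rose and 2 fell, with a median change of 0.24. The rises were in MVD, MVK and PMVK, enzymes of the mevalonate pathway, and in TM7SF2 and EBP, enzymes of the later sterol steps. They numbered 3 without clone 3 replicate 1 and 2 without parental replicate 2, and the call of MVK (0.33) was lost without any 1 of the 6 arrays. MVD had log2 levels of 9.28, 8.84 and 9.27 in clone 3 and of 8.30, 8.27 and 8.08 in the parental line, a change of 0.91 ± 0.14 (1.88-fold, adjusted p = 0.000393). SREBF2, which encodes the transcription factor SREBP2 that drives this pathway, had log2 levels of 8.12, 8.08 and 8.11 in clone 3 and of 8.70, 8.64 and 8.76 in the parental line (adjusted p = 0.00243). The factor's own transcript was thus lower by 0.60 while 5 genes of the pathway were higher; the call of SQLE (-0.39) held without clone 3 replicate 1 and was lost without any other array. In fatty acid and ether lipid synthesis 5 of 22 tested genes fell and 2 rose, with a median change of -0.19; the falls numbered 3 without clone 3 replicate 3 or without parental replicate 3. Besides FAR2 the falls included ACSL4, which activates arachidonic acid (-0.95 ± 0.13), and ELOVL6, which elongates saturated fatty acids (-0.89 ± 0.11). ACSL1, another acyl-CoA synthetase, rose by 0.74 ± 0.14, and the second rise, of ACSS2 (0.45), was lost without clone 3 replicate 1 or 3 or parental replicate 1 or 3.

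Of 18 tested genes of the amino acid response and of serine, arginine and proline synthesis 3 fell and 2 rose, with a median change of -0.36. Falls numbered 5 without clone 3 replicate 1, and 7 both with the replicate number as a block and with the 6 arrays fitted alone. Besides ASS1, which stood far below the others, the transsulfuration enzyme CBS fell by 0.68 ± 0.15. PSAT1, of serine synthesis, changed by -0.60 ± 0.20 (adjusted p = 0.0478), a call that held without clone 3 replicate 1 and was lost without any other array. SHMT1, which makes glycine and one-carbon units from serine, rose by 0.72 ± 0.14. ASL, the enzyme that follows ASS1 in arginine synthesis, rose by 0.48, so the successive steps moved in opposite directions. In glycolysis and the hypoxia response 2 of 16 genes fell and 2 rose, with a median change of -0.02. LDHA, the lactate dehydrogenase subunit, had log2 levels of 6.60, 6.33 and 6.46 in clone 3 and of 7.38, 7.29 and 7.28 in the parental line (a change of -0.86 ± 0.09, adjusted p = 1.85e-05). Hexokinase 2, HK2, rose by 0.60 ± 0.11. The other 2 calls, of GAPDH (-0.27) and of KDM3A, a histone demethylase that hypoxia induces (0.41), were lost without any 1 array for GAPDH and without 4 of the 6 for KDM3A.

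In the endoplasmic reticulum list 3 of 11 genes rose and 1 fell, with a median change of 0.14. SEL1L, a scaffold of the ubiquitin ligase that disposes of misfolded proteins, rose by 0.56 ± 0.11 and held without any 1 array. Without parental replicate 3 it was the sole rise, as the calls of the oxidase ERO1A (0.49) and of the chaperone CALR (0.33) were lost. XBP1, a transcription factor of the unfolded protein response, changed by -0.45 (adjusted p = 0.0115), a call lost without clone 3 replicate 3 or parental replicate 2. Of 17 glutathione and NRF2 target genes 1 rose and 2 fell, with a median change of 0.10; 3 rose and 1 fell when the arrays were made to share 1 distribution again. GPX2, a glutathione peroxidase of epithelia, had log2 levels of 6.18, 6.74 and 6.55 in clone 3 and of 5.42, 5.52 and 5.13 in the parental line, and rose by 1.13 ± 0.24 (adjusted p = 0.00332). TALDO1, of the pentose phosphate pathway, fell by 0.48; the fall of thioredoxin, TXN (-0.27), was lost without 4 of the 6 arrays. Of 28 cytosolic ribosomal protein genes 3 fell and 1 rose (3 when the arrays were made to share 1 distribution again), with a median change of 0.01. The call of RPL30 (-0.56) was lost without parental replicate 1, and those of the other 3 genes were each lost without at least 4 of the 6 arrays.

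Interferon-induced genes had no common direction. Of 22 tested members 3 fell and 1 rose, the same counts without any 1 of the 6 arrays but 5 falls with the 6 arrays fitted alone, and the median change was -0.06. MX2 had log2 levels of 6.59, 6.25 and 5.90 in clone 3 and of 4.83, 4.58 and 4.68 in the parental line. HERC6 had log2 levels of 5.81, 5.83 and 5.45 in clone 3 and of 6.87, 7.08 and 6.79 in the parental line. HERC5, its neighbour on chromosome 4 and the ligase that attaches the ubiquitin-like ISG15, had log2 levels of 3.71, 3.32 and 3.55 in clone 3 and of 4.72, 5.00 and 4.83 in the parental line. Of these, MX2 rose by 1.55 ± 0.20 whereas HERC6 and HERC5 fell by 1.22 ± 0.16 and 1.32 ± 0.20, HERC5 to a level below the 40th percentile in 2 clone 3 arrays. IFITM3, which blocks the entry of viruses, fell by 0.85 ± 0.18. Of 6 tested antigen presentation genes 2 fell and 1 rose. B2M, the light chain of class I molecules, changed by -0.45 ± 0.12 (adjusted p = 0.0151), but by -0.28 (adjusted p = 0.096) as the mean of its probe sets, and the call was also lost without clone 3 replicate 1 or parental replicate 1 or 2. CD47, which restrains phagocytosis, fell by 0.41 ± 0.10, and CALR is described above; the median change was -0.01.

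Surface receptors included NPY1R, the gene with the largest fall, and CXCR4, whose rise came after those of CLCA2, TARP and KLK12. Of 23 tested peptide, lipid and chemokine receptors 5 rose and 4 fell, with a median change of 0.10; rises numbered 3 without clone 3 replicate 2. Besides CXCR4, the rises included LPAR3, a receptor of lysophosphatidic acid, which had log2 levels of 5.59, 4.88 and 5.01 in clone 3 and of 4.21, 4.25 and 3.97 in the parental line (1.01 ± 0.16, adjusted p = 0.000401). FFAR2, a receptor of short-chain fatty acids, rose by 0.79. The calls of NPR3 (0.56) and GPR39 (0.52) were lost without clone 3 replicate 2, and that of GPR39 also without 4 other arrays. Besides NPY1R and CYSLTR1, NTSR1, a neurotensin receptor, fell by 0.75 and VIPR1 by 0.47. Of 10 tested members of the list of ion channels and transporters 2 rose and 3 fell (5 with the replicate number as a block), with a median change of -0.24. Both rises were of regulators, CLCA2 and CRACR2A, a calcium sensor that regulates the store-operated channel ORAI1. CRACR2A had log2 levels of 6.24, 6.49 and 6.39 in clone 3 and of 5.32, 4.93 and 5.35 in the parental line (1.18 ± 0.19, adjusted p = 0.00064). ORAI1 itself fell by 0.51 ± 0.12, TRPS1, which is a transcriptional repressor and no channel, by 0.49 ± 0.11, and CLIC3 by 0.47.

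Calls among matrix, mesenchymal and Wnt genes were falls, beside 11.0% lower and 6.22% higher over all genes, and most members were not called. In lists this short, 0 rises lies close to the share of all genes that rose. Of 15 tested integrins, matrix and mesenchymal genes 6 fell and 0 rose, with a median change of -0.21 and 4 or 5 falls without any 1 array. Besides GPC6 these were TIMP1, an inhibitor of matrix metalloproteinases (-1.17 ± 0.20), the mesenchymal factors TWIST1 (-1.06 ± 0.15) and SNAI1 (-0.77), the hyaluronan receptor CD44 (-0.89 ± 0.24) and vimentin, VIM (-0.53). TWIST1 had log2 levels of 3.88, 3.92 and 3.86 in clone 3 and of 4.99, 4.68 and 5.19 in the parental line, not far above the 40th percentile of 3.56 to 3.62 in clone 3. The call of CD44 (adjusted p = 0.0178) was lost without clone 3 replicate 2 or 3 or parental replicate 1 or 3, that of SNAI1 without clone 3 replicate 1 or parental replicate 2 or 3, and that of VIM without parental replicate 1 or 2. Of 24 Wnt receptors, inhibitors and targets 6 fell and 0 rose, with a median change of -0.19 and 5 or 6 falls without any 1 array. FZD8, a Wnt receptor, had log2 levels of 5.46, 5.25 and 5.37 in clone 3 and of 7.24, 7.37 and 6.85 in the parental line, and fell by 1.79 ± 0.17 (3.47-fold, adjusted p = 4.56e-06). DKK1, a secreted Wnt inhibitor, fell by 1.02 ± 0.21, LEF1, a transcription factor of the pathway, by 0.89 ± 0.20, and ZNRF3, a ligase that removes Frizzled receptors, by 0.74 ± 0.12. FZD6 and LRP5, receptors as well, fell by 0.67 and 0.47, LRP5 with a call lost without clone 3 replicate 2, so the falls covered receptors and inhibitors alike.

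Of 14 TGF-beta and BMP pathway genes 2 fell and 1 rose, with a median change of -0.09. Both falls, of the inhibitor SMAD6 (-1.10 ± 0.16) and of the signal carrier SMAD3 (-0.47 ± 0.11), were of genes on chromosome 15, and of the list's 12 members elsewhere 0 fell. SMAD3 had log2 levels of 3.63, 3.50 and 3.65 in clone 3, near the 40th percentile of 3.56 to 3.62, and of 3.85, 4.22 and 4.14 in the parental line. It was not called without parental replicate 2 (adjusted p = 0.0531), and the rise of the pseudoreceptor BAMBI (0.49) was lost without 4 of the 6 arrays. Of 20 junction and adhesion genes 6 fell and 2 rose, with a median change of -0.05. The rises numbered 5 when the arrays were made to share 1 distribution again and 1 without clone 3 replicate 1. The falls included CEACAM5, described below, and the desmosomal genes DSG2 (-0.79 ± 0.15), JUP (-0.55) and PKP2 (-0.53), while the desmosomal genes DSC2 (0.56 ± 0.13) and DSP (0.40) rose, DSP with a call lost without clone 3 replicate 1. Of 15 mucins and glycosyltransferases 2 fell, POGLUT3 and the xylosyltransferase GXYLT2 (-1.64 ± 0.13), and 1 rose, GALNT12, which starts mucin-type chains (0.67 ± 0.14); 2 rose without clone 3 replicate 3. The median change of the last list was -0.07.

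In a comparison that uses no parental array, clone 3 was higher than the mean of clones 1, 2 and 6 in 1141 genes (9.39%) and lower in 927 (7.63%). The higher genes numbered 760 without clone 3 replicate 1 and 676 without clone 3 replicate 2. Genes called in 1 direction against the parental line and against each other clone numbered 89 higher (0.733%) and 157 lower (1.29%). In 85 and 157 of these all 3 clone 3 arrays lay beyond the other 12, which over all tested genes was so upwards in 315 (2.59%) and downwards in 345 (2.84%). The genes described next were chosen by these comparisons, so that the position of clone 3 in them is a description. The 89 became 56 without parental replicate 2 or 3, and the 157 became 91 without clone 3 replicate 3.

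Among genes higher in clone 3 than anywhere else, CLCA2 stood 1.40 above the mean of the other clones, which were themselves 1.30 to 1.49 above the parental line. VTCN1, the immune checkpoint ligand B7-H4, had log2 levels of 7.44, 7.09 and 7.23 in clone 3 and of 6.62, 6.24 and 6.35 in the parental line. It rose by 0.85 ± 0.15 against the parental line (adjusted p = 0.00136), while clones 1, 2 and 6 had changes of -0.74, -1.06 and -0.37. ZNF415, a zinc finger gene, was likewise higher in clone 3 and lower in the other clones than in the parental line, with a change of 0.83 in clone 3 and of -0.87, -0.69 and -0.72 in the other clones. LINC01963 (1.27), GRAMD2A (1.27), CRACR2A (1.18), the orphan receptor GPR19 (1.10), LPAR3 (1.01) and the synaptic scaffold LIN7A (0.83) rose in clone 3 by the changes given, and their changes in the other clones lay between -0.50 and 0.34. CNTNAP2, a neurexin-related adhesion protein, changed by 0.81 ± 0.22 (adjusted p = 0.0166), a call lost without clone 3 replicate 3 (adjusted p = 0.0889) or parental replicate 1 (adjusted p = 0.0677).

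Among genes lower in clone 3 than anywhere else, CEACAM5, the carcinoembryonic antigen, differed most. It had log2 levels of 7.44, 7.19 and 6.77 in clone 3 and of 8.41, 8.24 and 8.68 in the parental line, a fall of 1.31 ± 0.15 (2.48-fold, adjusted p = 2.48e-05). In clones 1, 2 and 6 it was 3.00, 2.72 and 3.03 above the parental line, so that clone 3 lay 4.22 below their mean. Near-identical members of the CEACAM family may share probes with it. POGLUT3 had log2 levels of 4.46, 4.41 and 4.43 in clone 3 and of 6.96, 6.77 and 6.87 in the parental line, and was 2.16 below the mean of the other clones. PMAIP1 lay 1.78 below that mean, with changes of 0.55, 0.81 and -0.21 in clones 1, 2 and 6. TCEAL8, an elongation factor-like gene of the X chromosome, fell by 1.32 ± 0.14 in clone 3 and stood 1.31, 1.10 and 0.17 above the parental line in clones 1, 2 and 6. FKBP5 and SGPP2, a phosphatase of sphingosine 1-phosphate, fell by 1.07 and 1.04 in clone 3 and were above the parental mean in each other clone. The kinase LYN (-1.32), ZNF532 (-1.27) and ARHGAP11A (-1.11) fell in clone 3, and their changes in the other clones lay between -0.27 and 0.50. ARHGAP11A is a mitotic GTPase-activating protein, and its close copy ARHGAP11B may share its probes. TSPAN3, a tetraspanin, fell by 1.83 ± 0.16, although another probe set with its symbol had a change of 0.09.

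**Figure D3:**
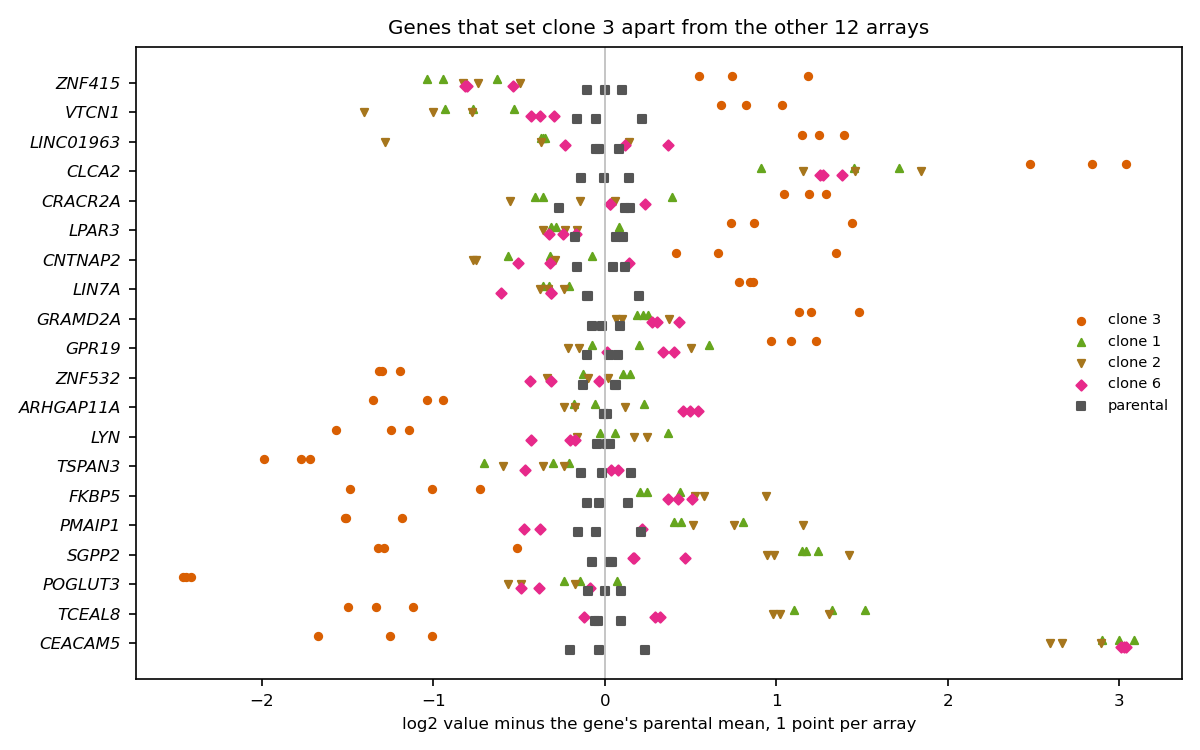
Log2 level of every array minus the mean of the gene's 3 parental arrays (horizontal axis) for 10 genes that were higher in clone 3 than in every other line and 10 that were lower, with 3 points for each of clone 3, clones 1, 2 and 6 and the parental line. By the choice of the genes, the clone 3 points lie beyond the other 12 arrays, and CEACAM5 in clones 1, 2 and 6 stands 2.72 to 3.03 above the parental line.

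Some genes moved oppositely in clone 3 and in another clone when each was set against the same parental arrays, 43 of those higher and 75 of those lower in clone 3. More calls were shared. Clones 1, 2 and 6 shared 200, 199 and 388 of the 756 higher calls and were called oppositely in 24, 32 and 18. They shared 570, 591 and 867 of the 1334 lower calls and were called oppositely in 55, 50 and 14. Over all 12147 genes these clones had 733, 664 and 939 higher and 1359, 1394 and 1785 lower calls. TARP rose in clone 3, while its changes in clones 1, 2 and 6 were -1.43, -1.49 and 1.85. Clone 3 thus exceeded clone 2 by 4.16, whereas the difference between clone 3 and clone 6 was 0.82 and was not called (adjusted p = 0.199). ERP27, a protein of the endoplasmic reticulum, had log2 levels of 6.58, 7.45 and 6.88 in clone 3 and of 5.63, 5.89 and 6.30 in the parental line. Its rise of 1.03 ± 0.27 (adjusted p = 0.0137) was lost without clone 3 replicate 2 (adjusted p = 0.0697) or parental replicate 1 (adjusted p = 0.0666), and its changes in clones 1, 2 and 6 were -1.32, -1.71 and 0.19. ZNF175 rose by 0.77 in clone 3, against changes of -0.73, -0.69 and -0.99 in clones 1, 2 and 6. RASSF2, a RAS-binding protein, had log2 levels of 6.66, 6.61 and 6.63 in clone 3 and of 8.27, 8.06 and 7.67 in the parental line. It fell by 1.36 ± 0.15 in clone 3, and its changes in clones 1, 2 and 6 were 0.87, 1.19 and -1.63. Clone 6 was thus also below the parental line, and clone 3 minus clone 6 was 0.27 (adjusted p = 0.339).

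Called genes were spread unevenly over the chromosomes, a description made after the values were seen and given without a test. On chromosome 15, 141 of 384 tested genes were lower in clone 3 (36.7%, beside 11.0% of all genes) and 6 were higher, and 281 had a negative change. The count of lower genes was 100 to 126 when 1 of the 6 arrays was left out and 116 when the arrays were made to share 1 distribution again. The median change on the chromosome was -0.23 in clone 3, beside -0.01, -0.01 and -0.08 in clones 1, 2 and 6. The mean log2 level of its genes was 5.91, 5.93 and 5.90 in the clone 3 arrays and 6.17, 6.18 and 6.19 in the parental arrays. Against the mean of clones 1, 2 and 6, 125 genes of the chromosome were lower in clone 3 and 15 were higher.

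**Figure D4:**
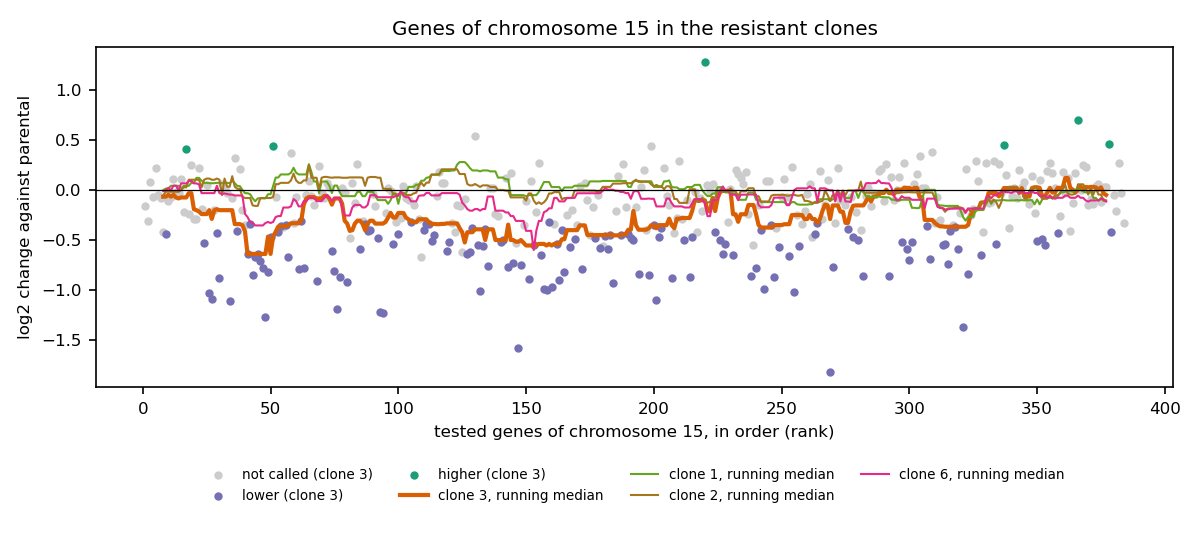
Log2 change of clone 3 against the parental line (points) for the 384 tested genes of chromosome 15 in their order along it, with running medians over 15 genes for clone 3 (thick line) and for clones 1, 2 and 6 (thin lines). The clone 3 line lies below 0 along most of the chromosome, and 141 genes are called lower and 6 higher.

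Within chromosome 15, 3 runs of 15 neighbouring tested genes had some of the most negative medians of all runs. From ARHGAP11A to CDIN1 10 of 15 genes fell and 0 rose. The median change was -0.64 in clone 3 and -0.04, -0.08 and -0.27 in clones 1, 2 and 6. CDIN1, a nuclear protein mutated in an inherited anaemia, had log2 levels of 7.28, 7.55 and 7.28 in clone 3 and of 8.54, 8.71 and 8.67 in the parental line. NOP10, a protein of the H/ACA particles that modify RNA, fell by 0.85 ± 0.11. In clones 1, 2 and 6 the changes were -0.70, -0.62 and -1.36 for CDIN1 and -0.45, -0.33 and -0.47 for NOP10. From MYO5C to RNF111 8 of 15 fell, with a median of -0.56 in clone 3 and of -0.07, -0.11 and -0.41 in clones 1, 2 and 6. Among them were PYGO1, a Wnt coactivator (-1.58 ± 0.14), and RNF111, a ligase that enhances TGF-beta signalling (-0.99 ± 0.11). PYGO1 had changes of -1.14, -1.38 and -1.42 in clones 1, 2 and 6, and RNF111 of -0.36, -0.57 and -0.74. From AFG2B to GABPB1-AS1 8 of 15 fell, with a median of -0.53 in clone 3 and of 0.28, 0.16 and -0.16 in clones 1, 2 and 6. In that run SECISBP2L fell by 0.65, COPS2, a subunit of the COP9 signalosome, by 0.62 and AFG2B by 0.61, and 5 falls were left when the arrays were made to share 1 distribution again, without clone 3 replicate 3, without parental replicate 1 or without parental replicate 3. The risen genes of the chromosome were few, and GRAMD2A, at 1.27, was the highest of them.

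The X chromosome had 107 of 399 genes lower (26.8%) and 10 higher (4 without parental replicate 2 and 16 when the arrays were made to share 1 distribution again), with a median change of -0.15. From MIR545 to SH3BGRL 9 of 15 fell, among them CYSLTR1, HMGN5, a nucleosome-binding protein (-1.41 ± 0.15), and SH3BGRL (-1.31 ± 0.13). The median change of that run was -0.55 in clone 3 and -0.07, -0.19 and -0.31 in clones 1, 2 and 6. From STAG2 to HS6ST2 8 of 15 fell, the same count without any 1 array, among them MBNL3, the kinase STK26 (-1.25 ± 0.10) and ZNF280C (-1.16 ± 0.13). Here the median change was -0.52 in clone 3 and -0.08, -0.06 and -0.02 in clones 1, 2 and 6. Lower genes were also frequent on chromosome 8 (96 of 430, 22.3%) and chromosome 22 (60 of 306, 19.6%). Members of the gene lists were split by location for chromosome 15 alone. Falls of list members on the X chromosome or on chromosomes 8 and 22 were not set apart. In clones 1, 2 and 6, lower genes numbered 54, 51 and 61 on the X chromosome and 47, 42 and 113 on chromosome 8. On chromosome 22 they numbered 34, 24 and 21. Over all 12147 genes, 1359, 1394 and 1785 were lower in clones 1, 2 and 6. The excess on chromosome 8 was thus also seen in clone 6.

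Higher genes were most frequent on chromosomes 21 (21 of 146, 14.4%), 5 (71 of 513, 13.8%) and 16 (77 of 568, 13.6%), beside 6.22% of all genes. The last 2 counts were 42 and 50 without parental replicate 2 and 47 and 44 without parental replicate 3, and that of chromosome 5 was 45 without clone 3 replicate 2. In clones 1, 2 and 6, higher genes numbered 10, 14 and 21 on chromosome 21 and 19, 13 and 40 on chromosome 5. On chromosome 16 they numbered 18, 20 and 97, and over all 12147 genes 733, 664 and 939. Clone 6 thus shared the excess on chromosome 16, and on chromosome 21 its count equalled that of clone 3. On chromosome 2, the run from NCKAP5 to KYNU had 9 of 15 genes higher and 0 lower, with a median change of 0.57 in clone 3 and of 0.45, 0.33 and 0.40 in clones 1, 2 and 6. It held CXCR4, MCM6, NCKAP5 and LCT, the intestinal lactase (1.16 ± 0.20), which are neighbours there. On chromosome 5, the run from EPB41L4A-DT to DMXL1 had 8 of 15 higher, with a median of 0.41 in clone 3 and of 0.02, -0.0033 and -0.03 in clones 1, 2 and 6. Its risen genes included TMED7, a cargo receptor of the secretory pathway (0.59 ± 0.10), FEM1C, a ubiquitin ligase subunit (0.56 ± 0.11), and TRIM36 (0.54 ± 0.11), and they numbered 4 without clone 3 replicate 2 and 5 without parental replicate 1 or 3. The run from ANKHD1-EIF4EBP3 to PCDHB14 had 5 of 15 higher, with a median of 0.39, and 3 without clone 3 replicate 1 or without parental replicate 1 or 2. PCDHB11, a protocadherin with near-identical copies beside it, had a change of 0.71 ± 0.15 there, and ANKHD1-EIF4EBP3 is a read-through transcript of its neighbours.

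**Figure D5:**
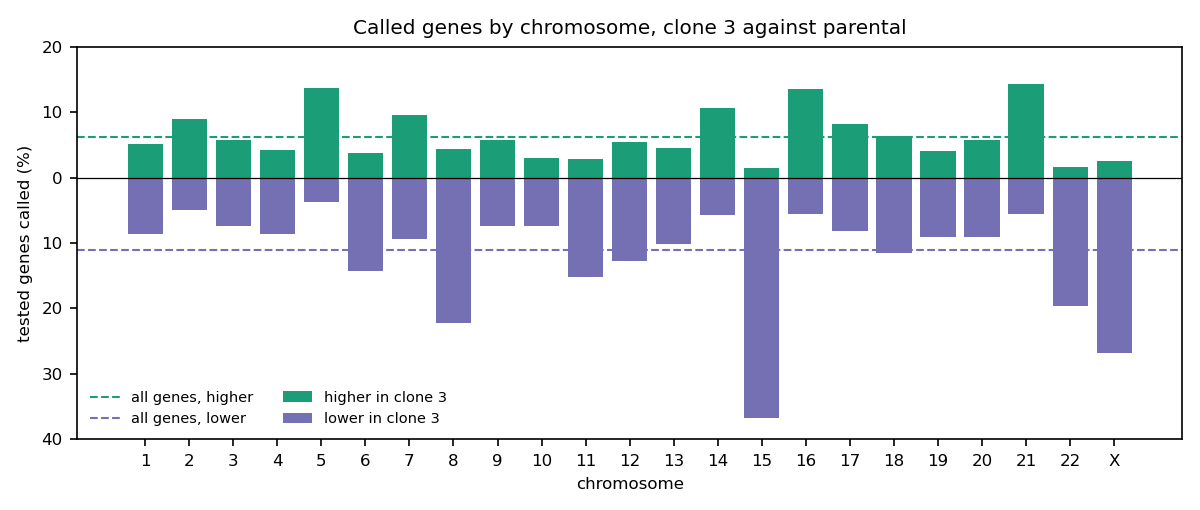
Percent of the tested genes of each chromosome that were higher (bars above 0) or lower (bars below 0) in clone 3 than in the parental line; dashed lines are the shares over all 12147 genes, 6.22% higher and 11.0% lower. Chromosome 15 has the longest bar, 36.7% lower, and chromosome 21 the highest share of higher genes, 14.4%.

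Genes of microRNAs, short RNAs that repress transcripts paired with their seed, made up 505 of the tested genes. Of them 29 were higher (5.74%) and 24 lower (4.75%) in clone 3, beside 6.22% and 11.0% of all genes. There were 44 higher with the 6 arrays fitted alone, 18 higher without parental replicate 2 and 14, 14 and 12 lower without clone 3 replicate 3, parental replicate 2 and parental replicate 3. Mature sequences were found in RefSeq (GRCh38.p14) for 45 of the 53. Those of 2 genes in each direction are printed, chosen after their values were seen for their large changes, with the seed, bases 2 to 8, in capitals. MIR1204 (-1.68) and MIR4660 (0.95) exceeded MIR5047 and MIR1269B in size of change and are named only.
hsa-miR-4653-5p, chr7:101159482-101159503, + strand: uCUCUGAGcaaggcuuaacacc
hsa-miR-4653-3p, chr7:101159524-101159546, + strand: uGGAGUUAaggguugcuuggaga
hsa-miR-5047, chr17:64501230-64501250, - strand: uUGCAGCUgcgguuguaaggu
hsa-miR-30a-5p, chr6:71403595-71403616, - strand: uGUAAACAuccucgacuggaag
hsa-miR-30a-3p, chr6:71403554-71403575, - strand: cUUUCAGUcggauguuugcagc
hsa-miR-1269b, chr17:12917313-12917334, - strand: cUGGACUGagccaugcuacugg
No 2 of the 6 share a seed. MIR4653 had log2 levels of 5.15, 4.91 and 5.57 in clone 3 and of 7.04, 6.86 and 7.32 in the parental line, a change of -1.87 ± 0.26 (adjusted p = 0.000182). MIR5047 had log2 levels of 7.67, 7.75 and 7.54 in clone 3 and of 8.91, 8.91 and 9.15 in the parental line, a change of -1.34 ± 0.22 (adjusted p = 0.000635). MIR30A, whose 5p arm belongs to a widely expressed family, had log2 levels of 5.58, 4.80 and 4.59 in clone 3 and of 3.96, 4.18 and 3.77 in the parental line, a change of 1.02 ± 0.23 (adjusted p = 0.00595). MIR1269B had log2 levels of 5.27, 5.52 and 5.79 in clone 3 and of 4.84, 4.46 and 4.80 in the parental line, a change of 0.82 ± 0.20 (adjusted p = 0.00977), a call lost without clone 3 replicate 3 or parental replicate 2. The arrays of the lines did not overlap in these 4 genes. A probe set of a microRNA gene does not tell its arms, the mature form and longer precursors apart. Of 897 tested long noncoding RNAs 49 were higher (5.46%) and 39 lower (4.35%), beside the same shares of all genes. Between 19 and 28 were higher without 1 of the 6 arrays, and 24 and 18 were lower without parental replicate 1 and parental replicate 3.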

How the data were processed

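Total RNA of 15 cultures (5 lines with 3 arrays each) was measured on Affymetrix arrays. The deposited values are log2 levels of 53617 probe sets. The submitters' processing notes name RMA, the Transcriptome Analysis Console and Affymetrix Expression Console 1.4.1, without saying which did what. RMA corrects background, equalises the arrays' distributions and summarises probes, which removes most of a shift shared by many genes and compresses low levels.

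Symbols came from the platform annotation, matched by gene identifier to RefSeq (GRCh38.p14) for names and gene order; 37519 probe sets had no symbol here. Probe sets had to exceed the 40th percentile of an array's values in 3 or more arrays, and each gene was represented by the 1 of highest mean level over the arrays. Using limma 3.58.1 (R 4.3.3), 1 mean per line was then fitted over the 15 arrays (10 residual degrees of freedom), with Benjamini-Hochberg adjustment over 12147 genes and calls below 0.05. The script was tested on simulated data. Summaries and figures used Python 3.11.15 and matplotlib 3.10.9. The number of arrays limits precision. The p-values set each change against limma's estimate of the spread between cultures of a line, which draws on all 15 arrays.

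The members and gene lists were chosen with earlier results of these data known, and lists were described without a test. Named were the 15 genes with the largest change per direction whose arrays did not overlap, up to 10 per direction apart from all other lines, up to 5 per direction called oppositely in another clone, up to 4 called members per list and per run of neighbours, and a fixed set of receptor, mitotic, lysosomal and luminal genes. Further called list members and the microRNAs were named after their values were seen. Alternatives were other filters, scalings, weights and thresholds, the mean of probe sets, the 6 arrays alone, the replicate number as a block and leaving out each array.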

Additional observations from a re-analysis of the deposited data

Results flagged for a closer look

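Clone 3 was tested directly against the other resistant clones, without the parental arrays. It was higher than the mean of clones 1, 2 and 6 in 1141 genes and lower in 927. The 20 genes named next were chosen because clone 3 lay beyond every other line in them, so their log2 differences, clone 3 minus that mean, are a description.

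Genes higher in clone 3 were ZNF415 (1.58), VTCN1 (1.57), LINC01963 (1.53), CLCA2 (1.40), CRACR2A (1.25), LPAR3 (1.24), CNTNAP2 (1.19), LIN7A (1.17), GRAMD2A (1.03) and GPR19 (0.91). Genes lower in clone 3 were CEACAM5 (-4.22), TCEAL8 (-2.18), POGLUT3 (-2.16), SGPP2 (-1.90), PMAIP1 (-1.78), FKBP5 (-1.54), TSPAN3 (-1.52), LYN (-1.30), ARHGAP11A (-1.24) and ZNF532 (-1.15).

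The next 10 genes, some of them also among the 20, were chosen because clone 3 and at least 1 other clone were called in opposite directions against the same parental arrays. Set against the clone with the largest opposite change in each gene, clone 3 was higher in TARP by 4.16, in ERP27 by 2.74 and in VTCN1 by 1.90, each against clone 2. It was higher in ZNF415 by 1.69 against clone 1 and in ZNF175 by 1.76 against clone 6. Differences of clone 3 minus the other clone were negative for TCEAL8 (-2.63) and SGPP2 (-2.23) against clone 1, for RASSF2 (-2.56) and PMAIP1 (-2.21) against clone 2, and for CEACAM5 (-4.34) against clone 6. Clone 3 does not stand apart from all clones in each of them: in clone 6 TARP was 1.85 above the parental line and RASSF2 had a change of -1.63, the directions of clone 3.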

How the results depend on the processing

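Of 161 called named genes, 151 kept their call in every setting other than leaving out an array, and 129 also without any 1 of the 6 arrays. At an adjusted p below 0.01, 306 genes were higher and 712 lower than in the parental line, 568 higher and 527 lower than the mean of the other clones, and 33 higher and 67 lower than every other line. Leaving out 1 array gave 420 to 551 higher and 855 to 1105 lower genes against the parental line, 676 to 1053 higher and 628 to 855 lower against the other clones, and 56 to 70 higher and 91 to 122 lower than every other line. The cause of these shifts was not tested, except that the fit then has fewer arrays. No other alternative moved these counts by over 1.5 times. LAMP1, which was not called, had changes of -0.0018 (without clone 3 replicate 3) to 0.1018 when 1 array was left out, and CTSB, also not called, one of 0.0156 when the arrays were made to share 1 distribution again; the cause was not tested. Between clone 3 and parental arrays, replicate numbers showed no pairing. Deviations of same-numbered arrays correlated at 0.0077, -0.0717 and -0.0295, and those of other pairs at -0.051 to 0.0806. Arrays of the other clones were not checked in this way. With the replicate number as a block 847 genes were higher and 1451 lower than in the parental line, more than the 756 and 1334 without it. The cause of this rise was not tested, and of the named genes TXN lost its call. Counts of 0 to 2 called members that changed by 1 gene under another scaling, the block or the 6 arrays alone were seen in the cholesterol, glycolysis, lysosomal, endocytic, tubulin and glycosyltransferase lists, in the luminal markers and in 3 runs of neighbouring genes (NCKAP5 to KYNU, MYO5C to RNF111 and AFG2B to GABPB1-AS1). With the 6 arrays alone, comparisons with other clones could not be made. Levels near the 40th percentile, 3.56 to 3.62, limit folds of dim genes such as FSTL5 and CYSLTR1, and the 37519 probe sets without a symbol limit coverage.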
